A study of Mus musculus with 18 samples.

Results

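The response of mouse hepatocytes to the cytokine TNFalpha was compared between cells made to express PGC-1a4 and cells that carried a vector control. The quantity described is an interaction: the TNF minus PBS difference with PGC-1a4, less the same difference with vector. It was taken from 12 of the 18 arrays of the series, 3 in each of 4 groups, and was computed for all 15491 genes measured, with no gene chosen by its values. The cells were primary hepatocytes, labelled wild type (Wt), from livers of C57BL/6J mice, of age and sex not given in the sources used here. All 4 groups had been infected with an adenovirus that also expressed GFP, either with no further insert (vector) or with PGC-1a4. At 48 hours of infection they were given TNFalpha at 2 ng per mL, or its PBS vehicle, for 2 hours. Viral promoter and amount of virus were likewise not stated there, and the single dose and time limit what the TNF response covers. The other 6 arrays, of cells with the longer isoform PGC-1a1, entered the estimate of the spread and are compared near the end.

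TNF acts through its receptor Tnfrsf1a to activate the IkB kinase complex, which releases the transcription factor NF-kB from inhibitors such as IkBalpha. NF-kB raises chemokines, adhesion receptors, survival genes and its own inhibitors, and in hepatocytes inflammatory cytokines also change plasma protein and metabolic genes. PGC-1alpha is a transcriptional coactivator that partners nuclear receptors to raise mitochondrial and fasting metabolism, and its gene, Ppargc1a, also yields the short splice variant PGC-1a4, described for its part in muscle growth.

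Levels are log2 values, on which a difference of 1 is a 2-fold change, and are given array by array. Differences are log2 differences ± SE from limma with 3 arrays in each group. A gene passed the threshold at an adjusted p of 0.05 over the 15491 genes, whatever its size. A higher interaction means that TNF raised the gene more, or lowered it less, with PGC-1a4 than with vector, and a lower interaction means the reverse. No label ties the 3 arrays of a group to separate cultures or mice, so each p-value reflects array-to-array spread that may be technical.

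Across genes, replicate arrays correlated at r = 0.992 to 0.997. Array medians were 7.24 to 7.32 in the PBS groups and 7.06 to 7.10 in the TNF groups, with SDs over probe sets of 2.06 to 2.12 and 2.24 to 2.31. The SDs of the 2 TNF groups did not overlap, at 2.24 to 2.25 with vector and 2.30 to 2.31 with PGC-1a4. No label names a batch of arrays, and an offset that a gene shares over all arrays of a treatment cancels by subtraction in the interaction. A difference in spread between the 2 TNF groups does not cancel in this way, and counts under other scalings are given below. An offset between PBS and TNF arrays also stays in the TNF minus PBS difference of 1 background. Its part in the rises and falls given below was not tested. Of the 3 measured hepatocyte markers, Alb (albumin) had group means of 15.55 to 15.68 and an interaction of 0.05 ± 0.09 (limma adjusted p = 0.762), and Apoa1 had means of 13.69 to 14.25 and an interaction of 0.23 ± 0.13. The third, Hnf4a, moved: its mean was 11.77 with vector in PBS and 8.99 with vector in TNF, with an interaction of 1.41 ± 0.15. The mean of the 3 was 13.66 to 13.90 on the PBS arrays, 12.72 to 12.92 on the vector TNF arrays and 13.53 to 13.54 on the PGC-1a4 TNF arrays. Ppargc1a itself lay at 7.36, 7.02 and 7.26 with vector and PBS, at 7.38, 6.93 and 7.03 with PGC-1a4 and PBS, at 7.01, 6.99 and 6.44 with vector and TNF, and at 6.74, 6.63 and 6.29 with PGC-1a4 and TNF. These arrays overlap between vector and PGC-1a4 within each treatment, and with no source that places the probes relative to the viral insert, they do not check the labels. The Tnf transcript gave an interaction of -0.13 ± 0.32 (limma adjusted p = 0.831).

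The TNF response differed between PGC-1a4 and vector for 2480 genes, 16% of those tested. The interaction was higher for 1841 genes (11.9%) and lower for 639 (4.12%), and 4451 genes had an unadjusted p under 0.05. Most were of moderate size: 223 of the higher and 57 of the lower genes reached a log2 difference of 1, and 9 and 2 reached a difference of 2. Higher genes were 74.2% of the calls, but 58.4% (1294 of 2216) after quantile normalization, 69.5% after centring each array and 55.5% (1387 of 2498) after cyclic loess. Part of the excess of higher calls thus depends on the scaling. The median interaction of all genes was 0.05, and 0.01, 0.03 and -0.00 under these 3 scalings. Called genes were brighter than the rest, with a median level of 9.18 for the higher and 8.37 for the lower genes, beside 7.97 for all genes.

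The 2 backgrounds differed far more on the TNF arrays than on the PBS arrays. Under PBS, PGC-1a4 and vector differed for 32 genes (0.207% of all), against 1668 with an unadjusted p under 0.05. Of the 32 genes, 12 (0.0775%) were higher and 20 (0.129%) lower. That split turned to 30 higher and 13 lower after centring each array. Leaving out vector PBS replicate 2 gave 59 genes, with 39 higher and 20 lower, leaving out replicate 3 of that group gave 21, and leaving out PGC-1a4 PBS replicates 1 or 3 gave 9 or 17. Array weights gave 893. Under TNF they differed for 5184 genes (33.5%). Among the 1841 higher genes, the 3 PGC-1a4 TNF arrays lay all above the 3 vector TNF arrays for 1772 (96.3%, against 26.3% of all genes), while the PBS arrays overlapped for 1401 (76.1%). Among the 639 lower genes the PGC-1a4 TNF arrays lay all below for 596 (93.3%, against 17% of all genes), with overlapping PBS arrays for 490 (76.7%). PBS arrays lay apart, above or below, for 7.46% and 10.6% of all genes. These shares use the same values as the call and describe its form.

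**Figure D1:**
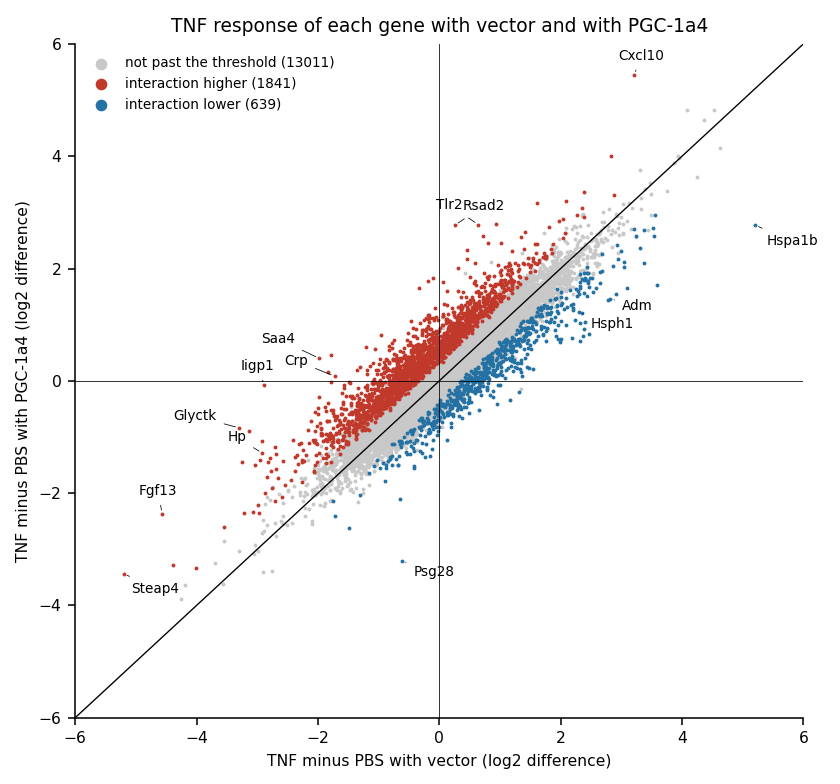
TNF minus PBS log2 difference of each of 15491 genes with vector (x axis) and with PGC-1a4 (y axis), each point a gene, with the line of equal response. The 1841 genes with a higher interaction (red) lie above the line and the 639 with a lower one (blue) lie below it, with Cxcl10 at the top and Hspa1b at the right. Steap4 and Fgf13, at the lower left, fell with TNF in both backgrounds and less with PGC-1a4.

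Which group stood apart differed between the 2 directions. For 949 of the 1841 higher genes (51.5%) the 3 vector TNF arrays lay below all 9 other arrays, against 11.6% of all genes, and for 961 (52.2%, against 14.3%) the PGC-1a4 TNF arrays lay above all 9 others. For 438 of the 639 lower genes (68.5%, against 10.5%) the vector TNF arrays lay above the rest, and for 151 (23.6%, against 4.81%) the PGC-1a4 TNF arrays lay below it. The PBS groups stood apart for fewer of them. Vector PBS lay above in 64 higher (3.48%) and 3 lower genes (0.469%), against 3.58% of all genes. It lay below in 11 (0.598%) and 53 (8.29%), against 2%. PGC-1a4 PBS lay above in 96 (5.21%) and 37 (5.79%), against 3.37%, and below in 119 (6.46%) and 16 (2.5%), against 4.17%. By group means, 616 of the higher genes lay above PBS in both responses (33.5%, against 42.4% of all genes), 624 below PBS in both (33.9%, against 43.3%), and 601 below with vector but above with PGC-1a4 (32.6%, against 8.71%). Of the lower genes 376 lay above PBS in both (58.8%), 112 below in both (17.5%) and 151 above with vector but below with PGC-1a4 (23.6%, against 5.64% of all genes). TNF changed 11041 genes (71.3%) with vector and 10879 (70.2%) with PGC-1a4. With vector 5377 rose and 5664 fell, but 6870 and 4059 after centring each array. With PGC-1a4 5796 rose and 5083 fell, but 7131 and 3648 after that centring. The direction against PBS thus depends in part on the scaling. Where both responses passed the threshold, they went in opposite directions for 191 higher and 37 lower genes.

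**Figure D2:**
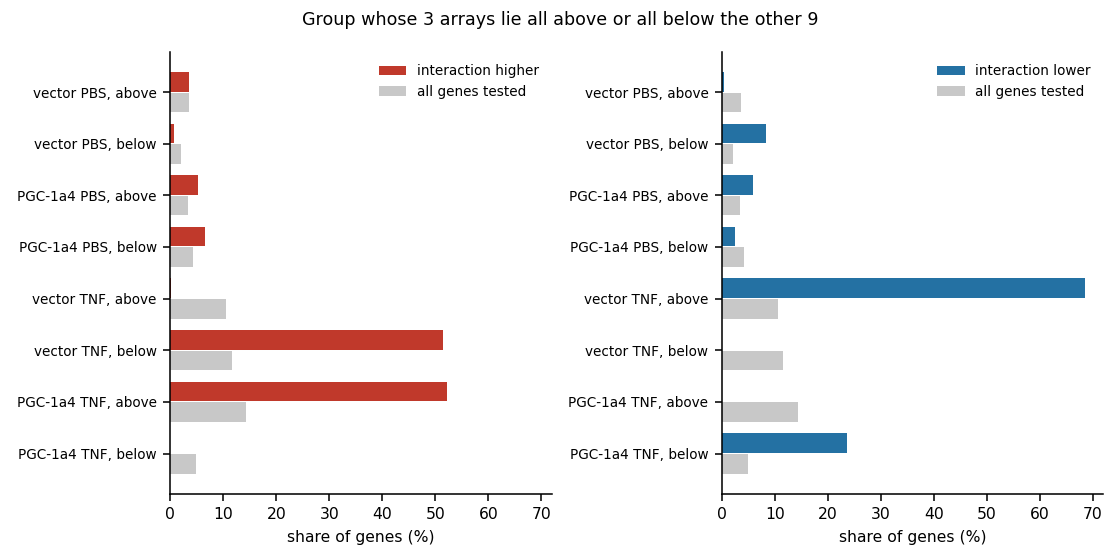
Share of genes (x axis, %) for which the 3 arrays of the named group lie all above or all below the 9 arrays of the other 3 groups, for genes with a higher interaction (left, red), a lower interaction (right, blue) and all 15491 genes tested (grey). The vector TNF arrays stand below in 51.5% of the higher genes and above in 68.5% of the lower genes.

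The 28 gene lists moved unequally. Higher calls took 61.9% of the measured acute phase genes, 46.7% of the NF-kB pathway, 41.2% of antigen presentation and 36% of the interferon response, beside 11.9% of all genes. Lower calls took 46.2% of the heat shock proteins and 35.9% of the unfolded protein response, beside 4.12% of all genes. The same shares of all genes, 11.9% higher and 4.12% lower, stand beside the list counts given below. No list was tested as a set, and the lists were drawn up with earlier results of these data known.

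**Figure D3:**
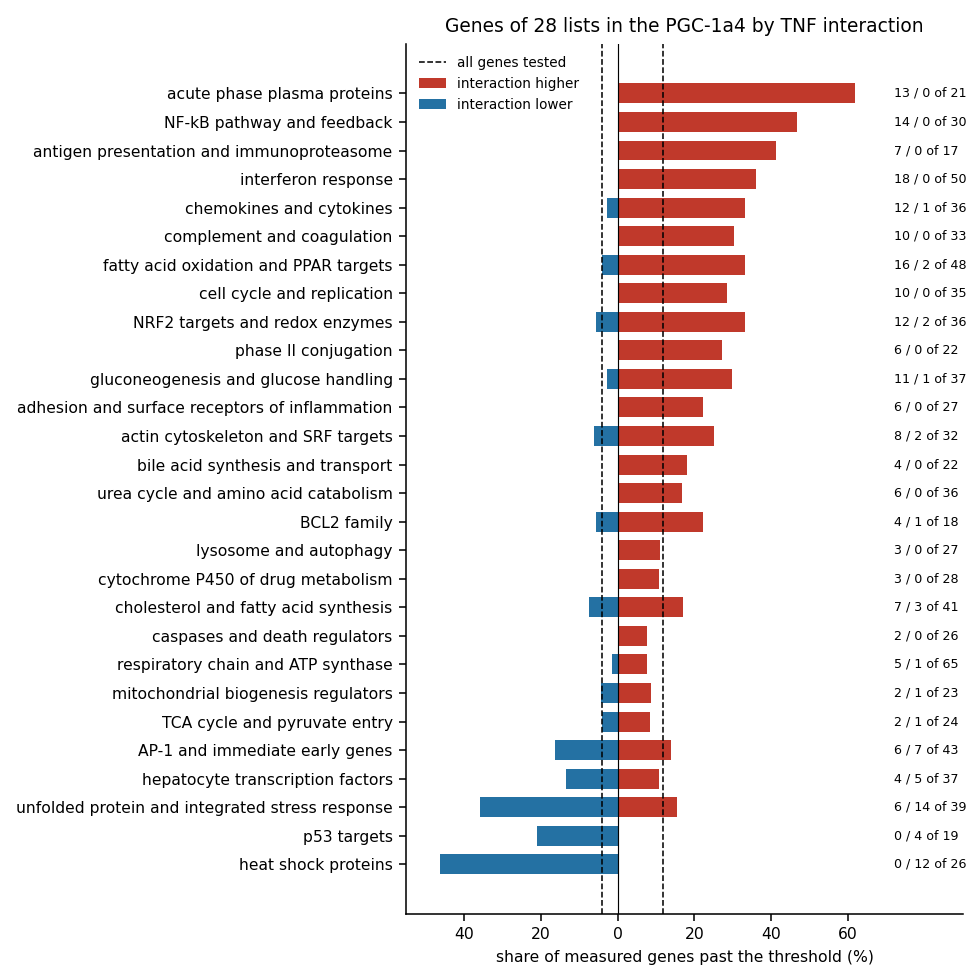
Share of each list's measured genes (x axis, %) past the threshold in the interaction, higher to the right and lower to the left, with the counts higher and lower of those measured at the right edge. The dashed lines mark all genes tested (11.9% higher, 4.12% lower), which acute phase, NF-kB and interferon genes exceed on the right and heat shock proteins on the left.

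Chemokines and cytokines, the secreted signals of inflammation, gave 12 higher and 1 lower call among 36 measured genes, with a median interaction of 0.16. Cxcl10, a chemokine that draws activated T cells, read 8.03, 8.62 and 8.49 on the vector PBS arrays, 6.95, 7.57 and 7.22 on the PGC-1a4 PBS arrays, 11.57, 11.73 and 11.46 on the vector TNF arrays and 12.63, 12.67 and 12.78 on the PGC-1a4 TNF arrays. Its PGC-1a4 arrays were the lowest of all in PBS and the highest of all in TNF. TNF raised it 9.25-fold with vector and 43.5-fold with PGC-1a4, an interaction of 2.23 ± 0.24 (limma adjusted p = 2.55e-05), and its PGC-1a4 minus vector difference under PBS was -1.13 ± 0.17 (limma adjusted p = 0.00554). Ccl9, a chemokine for myeloid cells, went from 8.20, 8.28 and 8.40 in PBS to 8.27, 8.24 and 7.79 in TNF on the vector arrays, and from 8.33, 8.16 and 8.36 to 10.18, 10.25 and 9.74 on the PGC-1a4 arrays. Only the PGC-1a4 TNF arrays stood above the others, and the interaction was 1.97 ± 0.23 (limma adjusted p = 4.17e-05).

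Ccl2, which draws monocytes, went from 11.65, 13.24 and 12.66 in PBS to 13.24, 13.25 and 13.23 in TNF on the vector arrays, and from 11.46, 11.94 and 11.56 to 14.30, 14.31 and 14.08 on the PGC-1a4 arrays. Here the vector PBS arrays were wide apart, with replicate 1 about as low as the PGC-1a4 PBS arrays, and the PGC-1a4 TNF arrays were the highest. The interaction was 1.85 ± 0.39 (limma adjusted p = 0.00325), and 2.29 without that array. The neutrophil chemokine Cxcl1 (1.66 ± 0.40) and Ccl20 (1.87 ± 0.43) had the same low vector PBS replicate 1. Without it their interactions were 2.15 and 2.35, and each stayed past the threshold. Il18 (1.41 ± 0.19) and Cxcl16 (0.78 ± 0.20) were also higher in interaction. Cxcl12, a constitutive chemokine, was the one with a lower interaction (-0.73 ± 0.15). Without 1 of the 12 arrays, the higher calls of the list numbered 8 to 12.

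Surface receptors that sense inflammation gave 6 higher and 0 lower calls among 27. Tlr2, a receptor for bacterial lipoproteins, read 7.07, 7.38 and 7.40 on the vector PBS arrays, 7.05, 6.97 and 7.01 on the PGC-1a4 PBS arrays, 7.87, 8.05 and 7.86 on the vector TNF arrays and 9.84, 9.92 and 9.62 on the PGC-1a4 TNF arrays. Its PGC-1a4 TNF arrays lay above all others by more than the spread of any group, and the interaction was 2.14 ± 0.20 (limma adjusted p = 7.2e-06). TNF raised it 1.56-fold with vector and 6.88-fold with PGC-1a4. Osmr, the oncostatin M receptor (1.35 ± 0.23), Cd14, the endotoxin co-receptor (0.96 ± 0.18), and Il10rb (0.53 ± 0.14) were among the other 5.

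Genes of the interferon response, which encode antiviral and antibacterial effectors, gave 18 higher and 0 lower calls among 50, and 17 to 20 higher and 0 or 1 lower calls without any 1 array. The list's median TNF response was -0.02 with vector and 0.38 with PGC-1a4. Rsad2 (viperin, an antiviral enzyme) read 9.42, 8.96 and 9.25 on the vector PBS arrays, 8.14, 8.42 and 8.30 on the PGC-1a4 PBS arrays, 9.58, 9.80 and 9.03 on the vector TNF arrays and 11.52, 11.35 and 10.29 on the PGC-1a4 TNF arrays. PGC-1a4 arrays were lowest in PBS and highest in TNF, with an interaction of 2.51 ± 0.36 (limma adjusted p = 0.000239), which all 3 probe sets of the gene gave past the threshold. The GTPase Gbp2, which acts on vacuoles that hold pathogens, lay at 7.12, 7.14 and 7.02 with vector and PBS, at 7.14, 7.15 and 7.07 with PGC-1a4 and PBS, at 7.82, 7.33 and 7.06 with vector and TNF, and at 9.22, 9.17 and 9.01 with PGC-1a4 and TNF. The 2 PBS groups overlapped, and only the PGC-1a4 TNF arrays were clear of the rest (interaction 1.71 ± 0.22, limma adjusted p = 8.86e-05). Gbp6 (1.85 ± 0.27), Ifi47 (1.53 ± 0.24), the ubiquitin ligase Dtx3l (1.48 ± 0.20) and Rtp4 (1.36 ± 0.32) were higher as well, and Ubd, a ubiquitin-like modifier that inflammation induces, gave 2.25 ± 0.21.

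Iigp1, an interferon-induced GTPase, held the highest interaction of all genes tested, 2.81 ± 0.31 (limma adjusted p = 3.45e-05). It went from 11.60, 11.56 and 11.61 in PBS to 8.92, 9.01 and 8.18 in TNF on the vector arrays, and from 11.77, 11.75 and 11.71 to 11.87, 11.74 and 11.39 on the PGC-1a4 arrays. The vector TNF arrays alone were low and the other 9 arrays were close together, so that the difference came from a fall with vector (-2.88 ± 0.22) that did not pass with PGC-1a4 (-0.08 ± 0.22). Irf1, a transcription factor that drives interferon genes, went from 10.21, 10.44 and 10.36 in PBS to 10.05, 9.91 and 9.94 in TNF on the vector arrays, and from 10.27, 10.25 and 10.22 to 11, 11.01 and 11.02 on the PGC-1a4 arrays. TNF lowered it with vector (-0.37 ± 0.10) and raised it with PGC-1a4 (0.76 ± 0.10), an interaction of 1.13 ± 0.14 (limma adjusted p = 6.37e-05). Of 17 genes of antigen presentation 7 were higher and 0 lower, with the immunoproteasome subunits Psmb10 (1.14 ± 0.12) and Psmb8 (0.95 ± 0.17) among them. That count fell to 4 without PGC-1a4 PBS replicate 1, PGC-1a4 TNF replicate 1 or PGC-1a4 TNF replicate 2, and to 4 after cyclic loess.

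**Figure D4:**
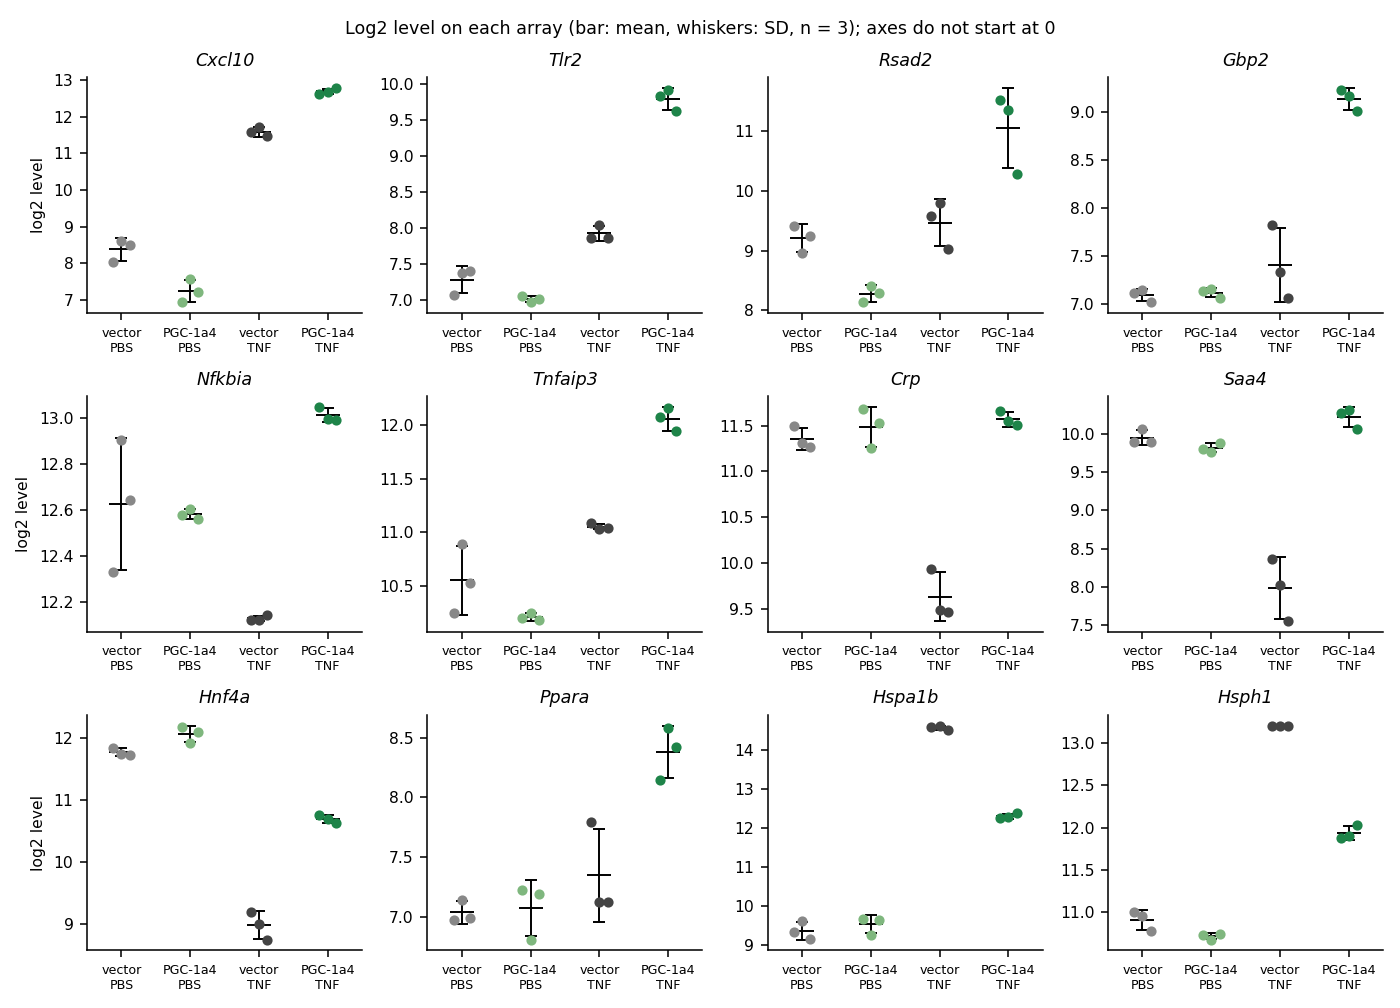
Log2 level (y axis) of 12 genes, array by array, in the 4 groups (x axis), with the mean and SD of 3 arrays, on axes that do not start at 0. Cxcl10, Tlr2, Rsad2 and Gbp2 are highest on the PGC-1a4 TNF arrays, Crp, Saa4 and Hnf4a are lowest on the vector TNF arrays, and Hspa1b and Hsph1 are highest on the vector TNF arrays.

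Components and inhibitors of the NF-kB pathway gave 14 higher and 0 lower calls among 30, with a median interaction of 0.40 beside 0.05 for all genes. After quantile normalization the counts were 12 and 1. At the receptor, Tnfrsf1a went from 11.15, 11.45 and 11.35 in PBS to 10.85, 10.89 and 10.88 in TNF on the vector arrays, and from 11.22, 11.42 and 11.42 to 11.55, 11.55 and 11.50 on the PGC-1a4 arrays. It was lower in TNF with vector (-0.44 ± 0.08) and not past the threshold with PGC-1a4 (0.18 ± 0.08), an interaction of 0.63 ± 0.12 (limma adjusted p = 0.00176). Among kinase subunits, Ikbkg (1.01 ± 0.13) and the inducible kinase Ikbke (1.5 ± 0.23) were higher, and all 4 probe sets of Ikbkg passed.

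The feedback inhibitors moved with them. Nfkbia, which encodes IkBalpha, read 12.33, 12.91 and 12.64 on the vector PBS arrays, 12.58, 12.60 and 12.56 on the PGC-1a4 PBS arrays, 12.13, 12.12 and 12.14 on the vector TNF arrays and 13.05, 13 and 12.99 on the PGC-1a4 TNF arrays. TNF lowered it with vector (-0.50 ± 0.10) and raised it with PGC-1a4 (0.43 ± 0.10), so that the 2 sets of TNF arrays lay on either side of the PBS arrays. The interaction was 0.93 ± 0.15 (limma adjusted p = 0.000498), and the other 3 probe sets gave 0.71, 0.72 and 0.85. Tnfaip3 (A20, an enzyme that edits ubiquitin chains to stop the signal) lay at 10.24, 10.89 and 10.52 with vector and PBS, at 10.20, 10.25 and 10.17 with PGC-1a4 and PBS, at 11.08, 11.03 and 11.04 with vector and TNF, and at 12.07, 12.17 and 11.95 with PGC-1a4 and TNF. Both TNF groups lay above their PBS arrays, the PGC-1a4 group further (interaction 1.35 ± 0.20, limma adjusted p = 0.000304). Nfkbie (1.04 ± 0.22), Tnip1 (0.71 ± 0.17) and Bcl3 (0.54 ± 0.12), of the same feedback layer, were higher too. The survival factor Birc2 (cIAP1) went from 10.17, 10.77 and 10.31 in PBS to 10.19, 10.15 and 10.05 in TNF on the vector arrays, and from 10.47, 10.38 and 10.50 to 11.44, 11.33 and 11.28 on the PGC-1a4 arrays. Only the PGC-1a4 TNF arrays stood apart, with an interaction of 1.19 ± 0.19 (limma adjusted p = 0.000532).

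Promoters of genes named here were searched for 3 motifs, and 5 are shown as examples of a match in a gene described here. They were chosen for holding one, so they do not stand for their lists. The sequences are the 250 bases before the annotated start (RefSeq, GRCm38.p6), written 5′ to 3′ along the gene, with motif matches in capitals. The motifs were GGGANNTNCC for NF-kB, GAAANNGAAA for the interferon-stimulated response element and GAANNTTCNNGAA for the heat shock element, each on both strands. Cxcl10 (chr5:92348890-92349139, minus strand) holds 2 NF-kB matches and 1 interferon element, Tlr2 (chr3:83841609-83841858, minus strand) 1 NF-kB match, and Nfkbia (chr12:55492648-55492897, minus strand) 2. Gbp2 (chr3:142620413-142620662, plus strand) holds 1 interferon element. Hspe1 (chr1:55087898-55088147, plus strand) holds 2 heat shock matches that overlap each other.
Cxcl10: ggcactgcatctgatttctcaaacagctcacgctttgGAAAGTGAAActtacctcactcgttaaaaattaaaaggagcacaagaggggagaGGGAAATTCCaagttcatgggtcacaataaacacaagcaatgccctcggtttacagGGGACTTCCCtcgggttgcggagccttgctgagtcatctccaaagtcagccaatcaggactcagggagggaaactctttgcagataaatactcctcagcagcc
Tlr2: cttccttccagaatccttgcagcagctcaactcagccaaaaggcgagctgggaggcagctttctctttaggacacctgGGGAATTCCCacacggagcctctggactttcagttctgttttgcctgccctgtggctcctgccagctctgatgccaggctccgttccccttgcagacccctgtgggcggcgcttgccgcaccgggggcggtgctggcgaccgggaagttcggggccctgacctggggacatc
Nfkbia: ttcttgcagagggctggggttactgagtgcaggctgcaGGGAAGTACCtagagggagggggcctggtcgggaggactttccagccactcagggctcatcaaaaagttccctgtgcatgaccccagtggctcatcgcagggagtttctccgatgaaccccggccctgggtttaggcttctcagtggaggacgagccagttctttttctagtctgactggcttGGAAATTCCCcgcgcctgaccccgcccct
Gbp2: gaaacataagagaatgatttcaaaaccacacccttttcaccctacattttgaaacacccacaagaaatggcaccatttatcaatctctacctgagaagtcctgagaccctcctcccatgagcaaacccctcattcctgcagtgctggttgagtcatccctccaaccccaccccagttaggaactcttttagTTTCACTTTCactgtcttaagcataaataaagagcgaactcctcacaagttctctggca
Hspe1: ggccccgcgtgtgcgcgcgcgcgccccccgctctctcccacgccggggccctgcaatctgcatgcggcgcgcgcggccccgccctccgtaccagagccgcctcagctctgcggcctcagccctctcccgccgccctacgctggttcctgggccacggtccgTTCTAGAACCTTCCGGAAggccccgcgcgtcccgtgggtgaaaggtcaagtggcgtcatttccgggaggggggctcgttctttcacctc

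Among the 12262 tested genes with a promoter in the table, 3.63% held the NF-kB motif, 2.63% the interferon element and 0.391% the heat shock element. In the whole table of 27025 genes the shares were 3.23%, 3.05% and 0.403%. Promoters of only part of the called genes were counted: 12 of 14 NF-kB pathway, 13 of 18 interferon and 9 of 12 heat shock genes. Of the 12 NF-kB pathway genes 4 held an NF-kB match (Ikbkg, Nfkb2, Nfkbia and Tnip1). Of the 13 interferon genes 4 held an interferon element (Gbp2, Gbp7, Rsad2 and Trim30a). Nfkb2 passed narrowly: its other probe set gave -0.25, and its call was lost without any 1 array but vector PBS replicate 1. Of the heat shock genes 1 of 9, Hspe1, held the heat shock element, while 2 of the same 9 (22.2%) held the NF-kB motif, beside 2 of 8 chemokines and cytokines. A match is a description of these letters and not evidence of binding, and genes with no match in this window may hold one elsewhere.

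Acute phase proteins, which the liver secretes during inflammation, were the list with the most higher calls for its size: 13 of 21, with 0 lower and 10 to 13 higher without any 1 array. Their median TNF response was -0.58 with vector and -0.12 with PGC-1a4. Crp (C-reactive protein) read 11.49, 11.31 and 11.26 on the vector PBS arrays, 11.68, 11.25 and 11.53 on the PGC-1a4 PBS arrays, 9.94, 9.49 and 9.47 on the vector TNF arrays and 11.66, 11.54 and 11.50 on the PGC-1a4 TNF arrays. The vector TNF arrays were the lowest, and the PGC-1a4 TNF arrays lay just above vector PBS and within the range of PGC-1a4 PBS. TNF lowered Crp with vector (-1.72 ± 0.13), its response with PGC-1a4 did not pass (0.08 ± 0.13), and the interaction was 1.80 ± 0.19 (limma adjusted p = 1.88e-05). Saa4, a serum amyloid A protein, lay at 9.90, 10.07 and 9.90 with vector and PBS, at 9.81, 9.77 and 9.89 with PGC-1a4 and PBS, at 8.36, 8.02 and 7.55 with vector and TNF, and at 10.28, 10.32 and 10.07 with PGC-1a4 and TNF. TNF lowered it with vector (-1.98 ± 0.15) and raised it with PGC-1a4 (0.40 ± 0.15), an interaction of 2.38 ± 0.21 (limma adjusted p = 5.64e-06).

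Other members fell in both responses, less with PGC-1a4. Haptoglobin, Hp, which binds free haemoglobin, went from 14.93, 15.21 and 15.06 in PBS to 12.31, 12.13 and 12.01 in TNF on the vector arrays, and from 15.19, 15.17 and 15.18 to 14.04, 13.95 and 13.68 on the PGC-1a4 arrays. The PGC-1a4 TNF arrays lay between the vector TNF arrays and the PBS arrays, with an interaction of 1.63 ± 0.15 (limma adjusted p = 7.2e-06). Steap4, a metalloreductase, fell 36.8-fold with vector and 10.8-fold with PGC-1a4 (interaction 1.77 ± 0.34), and the endotoxin-binding protein Lbp had an interaction of 1.06 ± 0.15. Lcn2 (lipocalin 2, which binds iron-carrying siderophores) fell with vector (-0.30 ± 0.07) and rose with PGC-1a4 (0.34 ± 0.07). In complement and coagulation 10 of 33 genes were higher and 0 lower, among them the C1 inhibitor Serping1 (0.71 ± 0.11) and C1ra (0.76 ± 0.14). That count was 6 without PGC-1a4 PBS replicate 2 or without PGC-1a4 TNF replicate 2.

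Hnf4a and 7 other genes described next fell with TNF in the vector background. Most were named for the size of their interaction, and together they are no fixed list. Hnf4a, the nuclear receptor that maintains hepatocyte identity, read 11.84, 11.73 and 11.72 on the vector PBS arrays, 12.18, 11.92 and 12.09 on the PGC-1a4 PBS arrays, 9.20, 9.01 and 8.75 on the vector TNF arrays and 10.75, 10.69 and 10.62 on the PGC-1a4 TNF arrays. No arrays overlapped between the 2 TNF groups, and both lay below PBS, with an interaction of 1.41 ± 0.15 (limma adjusted p = 1.71e-05) that all 3 probe sets gave. Maob, a mitochondrial monoamine oxidase, went from 10.86, 10.82 and 10.71 in PBS to 7.60, 7.55 and 7.82 in TNF on the vector arrays, and from 10.95, 10.81 and 11.11 to 10.31, 10.23 and 9.67 on the PGC-1a4 arrays. Its vector TNF arrays were the lowest of all by a wide margin (interaction 2.25 ± 0.25, limma adjusted p = 2.82e-05). Glycerate kinase, Glyctk, lay at 10.12, 9.62 and 9.79 with vector and PBS, at 10.03, 9.80 and 10.01 with PGC-1a4 and PBS, at 6.42, 6.53 and 6.69 with vector and TNF, and at 9.05, 9.24 and 9.03 with PGC-1a4 and TNF. TNF lowered it 9.82-fold with vector and 1.79-fold with PGC-1a4 (interaction 2.46 ± 0.18, limma adjusted p = 6.69e-07). The aldehyde dehydrogenase Aldh1a1 (1.52 ± 0.19) and Fgf13, an intracellular fibroblast growth factor homologue (2.20 ± 0.34), fell in both as well. Aldh1a7 (1.98 ± 0.24) and the bile acid conjugating enzyme Baat (1.77 ± 0.35) fell with vector and did not pass with PGC-1a4 (0.15 ± 0.17 and -0.02 ± 0.25), and the vasopressin receptor Avpr1a (1.81 ± 0.15) fell with vector (-1.20 ± 0.10) and rose with PGC-1a4 (0.61 ± 0.10). Another probe set of Fgf13 gave -0.00 and did not pass. Among hepatocyte transcription factors as a list, 4 of 37 were higher (10.8%, against 11.9% of all genes) and 5 lower (13.5%, against 4.12%). The list as a whole thus did not follow Hnf4a. Its lower genes included the clock repressor Nr1d1 (-1.17 ± 0.14), Onecut2 (-0.78 ± 0.16) and Gata6 (-0.71 ± 0.12). The higher count was 2 after quantile normalization or cyclic loess, and 2 without PGC-1a4 PBS replicate 2, vector TNF replicate 2 or PGC-1a4 TNF replicate 1.

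Fatty acid oxidation and PPAR target genes gave 16 higher and 2 lower calls among 48, with 12 to 18 higher without any 1 array. The list's median TNF response was -0.44 with vector and -0.10 with PGC-1a4. Ppara, the nuclear receptor that drives fatty acid oxidation in liver, read 6.97, 7.14 and 6.99 on the vector PBS arrays, 7.22, 6.81 and 7.19 on the PGC-1a4 PBS arrays, 7.80, 7.12 and 7.12 on the vector TNF arrays and 8.15, 8.58 and 8.42 on the PGC-1a4 TNF arrays. Only the PGC-1a4 TNF arrays stood above the rest, and the interaction was 1.00 ± 0.24 (limma adjusted p = 0.0083). Higher too were Pex11a, of peroxisome division (1.15 ± 0.14), Ehhadh, of peroxisomal oxidation (1.09 ± 0.18), and Cpt2, of mitochondrial import (0.74 ± 0.14). Pdk4, a kinase that inhibits pyruvate dehydrogenase, was lower (-0.80 ± 0.16).

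In glucose handling 11 of 37 genes were higher and 1 lower. G6pc, the last enzyme of gluconeogenesis, went from 9.12, 8.72 and 8.88 in PBS to 5.64, 6.35 and 6.20 in TNF on the vector arrays, and from 9.64, 9.28 and 9.50 to 7.65, 7.74 and 7.91 on the PGC-1a4 arrays. The fall with TNF was -2.84 ± 0.17 with vector and -1.70 ± 0.17 with PGC-1a4, an interaction of 1.14 ± 0.25 (limma adjusted p = 0.00424). The glucose-6-phosphate transporter Slc37a4 (0.95 ± 0.16), Fbp1 (0.75 ± 0.17) and Igfbp1, an insulin-suppressed binding protein (1.21 ± 0.17), went the same way. The higher count was 7 when replicate 2 of either PBS group, vector TNF replicate 3 or PGC-1a4 TNF replicate 2 was left out, 6 after quantile normalization and 7 after cyclic loess. In lipid synthesis 7 of 41 were higher (17.1%, against 11.9% of all genes) and 3 lower (7.32%, against 4.12%). Gpam (1.18 ± 0.14) and Dhcr7 (1.06 ± 0.18) were higher and Lpin1 lower (-0.67 ± 0.14).

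Mitochondrial energy genes, classic targets of PGC-1alpha, gave calls that depended on the setting. Of 65 respiratory chain and ATP synthase genes 5 were higher (7.69%) and 1 lower, with a median interaction of 0.06. The higher count ranged from 2 to 13 over the settings in which lists were counted, without the stricter thresholds. The list then passed the share of all genes: 13 of 65 (20%, against 13.6% of all genes) with trend and robust moderation, and 11 of 65 (16.9%, against 8.35%) after quantile normalization. The count was 9 without vector PBS replicate 1, and 2 or 3 without vector PBS replicates 2 or 3, any PGC-1a4 PBS array, vector TNF replicate 3 or PGC-1a4 TNF replicates 2 or 3. Complex I subunits Ndufs3 (0.47 ± 0.10) and Ndufa8 (0.47 ± 0.12) were higher. Ndufs4, of the same complex, was lower (-1.20 ± 0.17), but its other probe set gave -0.35 and did not pass. Among regulators of mitochondrial biogenesis 2 of 23 were higher (8.7%, under the 11.9% of all genes), Tfb1m (1.18 ± 0.20) and the deacetylase Sirt3 (1.01 ± 0.15). The transcription factor Yy1 was lower (-0.35 ± 0.11), a call lost in the fit of the 12 arrays and without any 1 of 9 arrays (replicates 2 and 3 of both PBS groups, vector TNF replicates 1 and 3, each PGC-1a4 TNF array). After quantile normalization or cyclic loess 2 were higher and 3 lower.

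Heat shock proteins went the other way. These chaperones refold damaged proteins and are raised by heat shock factor 1, and 12 of the 26 measured had a lower interaction, with 0 higher. Counts were 10 to 13 lower without any 1 array, and 0 were higher under every setting in which lists were counted. Hspa1b, the inducible Hsp70, read 9.33, 9.61 and 9.15 on the vector PBS arrays, 9.67, 9.26 and 9.64 on the PGC-1a4 PBS arrays, 14.57, 14.61 and 14.50 on the vector TNF arrays and 12.25, 12.27 and 12.37 on the PGC-1a4 TNF arrays. TNF raised it 36.7-fold with vector and 6.83-fold with PGC-1a4, the 2 TNF groups were far apart, and the PBS arrays overlapped. The interaction was -2.43 ± 0.18 (limma adjusted p = 6.69e-07), and its second probe set gave -2.60. Hspa1a is a near-identical copy whose transcript may bind the same probes, and the copies cannot be told apart here.

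Hsph1, the Hsp70 partner Hsp110, lay at 10.99, 10.95 and 10.77 with vector and PBS, at 10.72, 10.67 and 10.74 with PGC-1a4 and PBS, at 13.21, 13.20 and 13.21 with vector and TNF, and at 11.87, 11.90 and 12.03 with PGC-1a4 and TNF. TNF raised it in both backgrounds, less with PGC-1a4 (interaction -1.07 ± 0.12, limma adjusted p = 2.68e-05). The mitochondrial co-chaperonin Hspe1, went from 10.91, 11.38 and 11.06 in PBS to 12.81, 12.80 and 12.84 in TNF on the vector arrays, and from 10.93, 10.97 and 10.97 to 11.75, 11.77 and 11.86 on the PGC-1a4 arrays. Its interaction was -0.87 ± 0.14 (limma adjusted p = 0.000506). The constitutive Hsp70 Hspa8 (-0.51 ± 0.10), the co-chaperones Bag3 (-0.70 ± 0.13), Dnajb1 (-0.60 ± 0.11) and St13 (-0.60 ± 0.13) were lower as well. For Hspa8, TNF raised the level with vector (0.42 ± 0.07) and the response with PGC-1a4 did not pass (-0.09 ± 0.07).

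The unfolded protein and integrated stress responses, which adjust folding capacity and translation under stress, gave 14 lower and 6 higher calls among 39. The lower count dropped to 9 when replicate 3 of either PBS group or PGC-1a4 TNF replicate 2 was left out. Hspa5 (BiP, the main chaperone of the endoplasmic reticulum) went from 13.49, 13.49 and 13.53 in PBS to 14.49, 14.38 and 14.49 in TNF on the vector arrays, and from 13.57, 13.51 and 13.61 to 14.11, 14.07 and 14.00 on the PGC-1a4 arrays. Both responses were rises, the PGC-1a4 one smaller (interaction -0.45 ± 0.10, limma adjusted p = 0.00403). Manf, a secreted chaperone of the same compartment (-0.60 ± 0.11), Ppp1r15a (GADD34, a phosphatase subunit that restores translation, -0.53 ± 0.12), Sel1l, of protein degradation (-0.74 ± 0.12), and Crebrf (-1.04 ± 0.19) were lower. The call of Sel1l was lost in the mean of its 4 probe sets (-0.23). Among the 6 higher genes, the cystine transporter Slc7a11 went from 10.25, 10.36 and 10.34 in PBS to 11.85, 11.93 and 11.91 in TNF on the vector arrays, and from 9.46, 9.50 and 9.21 to 11.83, 11.75 and 11.90 on the PGC-1a4 arrays. The PGC-1a4 arrays were low in PBS and overlapped the vector arrays in TNF, so its interaction of 0.86 ± 0.15 came with a PBS difference of -0.93 ± 0.11 (limma adjusted p = 0.000512). The count of higher genes was 2 or 3 without any 1 of 6 arrays, vector PBS replicate 3, PGC-1a4 PBS replicates 2 and 3, vector TNF replicate 2 and PGC-1a4 TNF replicates 1 and 2.

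Immediate early genes, which respond to growth and stress signals within minutes, gave 6 higher and 7 lower calls among 43. The higher share (14%) was near the 11.9% of all genes, and the lower share (16.3%) was above the 4.12% of all genes. Egr1, a zinc finger factor, lay at 9.58, 9.85 and 9.57 with vector and PBS, at 9.99, 10.01 and 10.11 with PGC-1a4 and PBS, at 11.83, 11.80 and 11.99 with vector and TNF, and at 11.44, 11.26 and 11.32 with PGC-1a4 and TNF. The vector PBS arrays were lowest and the vector TNF arrays highest (interaction -0.90 ± 0.15, limma adjusted p = 0.000761). The ERK phosphatase Dusp6 (-0.93 ± 0.15), Maff (-0.80 ± 0.14) and the AP-1 subunit Jun (-0.57 ± 0.15) were lower. Higher were the SRF targets Ccn1 (0.94 ± 0.18) and Ccn2 (0.84 ± 0.20), and Srf itself (0.91 ± 0.11), although its other probe set gave -0.08. In the wider list of actin and SRF targets 8 of 32 were higher and 2 lower. The lower pair, the contractile genes Acta2 (-0.68 ± 0.14) and Tagln (-0.89 ± 0.15), are smooth muscle and stellate cell genes. Of 19 genes listed here as p53 targets 4 were lower and 0 higher, the largest being Ccng2, a cyclin of growth arrest (-0.66 ± 0.11). Whether p53 drives Ccng2 in these cells was not tested.

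Cell death genes differed between the 2 lists. In the BCL2 family 4 of 18 were higher (22.2%, against 11.9% of all genes) and 1 lower (5.56%, against 4.12%). The death agonist Bid (0.79 ± 0.15), Bok (0.75 ± 0.13), Bak1 (0.68 ± 0.16) and Bik (1.12 ± 0.30, 0.48 and not past the threshold in the mean of its probe sets) were higher. The lower one was Bbc3 (-0.47 ± 0.15), whose call was lost with the replicate block, in the fit of the 12 arrays alone and without any 1 of 7 arrays (vector PBS replicates 1 and 3, PGC-1a4 PBS replicates 1 and 2, vector TNF replicates 1 and 3, PGC-1a4 TNF replicate 1). Among 26 caspases and death regulators 2 were higher and 0 lower, a share under that of all genes: Birc2, above, and the pore-forming Gsdmd. Gsdmd went from 8.92, 9.14 and 9.06 in PBS to 8.49, 8.13 and 8.18 in TNF on the vector arrays, and from 9.33, 9.01 and 9.24 to 9.79, 9.82 and 9.74 on the PGC-1a4 arrays. It fell with vector (-0.78 ± 0.16) and rose with PGC-1a4 (0.59 ± 0.16), an interaction of 1.36 ± 0.23 (limma adjusted p = 0.000716).

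Redox and replication genes were higher in part. Of 36 NRF2 targets and redox enzymes 12 were higher and 2 lower, with haem oxygenase Hmox1 (0.89 ± 0.22), sulfiredoxin Srxn1 (0.74 ± 0.12) and the glutathione transferase Gstm3 (1.22 ± 0.21) higher and transketolase Tkt lower (-0.89 ± 0.10). Of 35 cell cycle genes 10 were higher and 0 lower, with a median interaction of 0.33. Rrm2, a subunit of ribonucleotide reductase, went from 11.20, 11.45 and 11.21 in PBS to 10.61, 10.62 and 10.58 in TNF on the vector arrays, and from 11.19, 11.46 and 11.25 to 11.32, 11.39 and 11.26 on the PGC-1a4 arrays. Its vector TNF arrays were low and the other 9 arrays overlapped (interaction 0.71 ± 0.15, limma adjusted p = 0.00301). Cdk1 (0.60 ± 0.14) and Rrm1 (0.73 ± 0.15) were higher too. Phase II conjugation had 6 of 22 higher (27.3%), bile acid genes 4 of 22 (18.2%) and amino acid catabolism 6 of 36 (16.7%), beside 11.9% of all genes. Each had 0 lower, beside 4.12% of all genes.

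Among the lowest interactions were genes of unrelated function. Adm (adrenomedullin, a vasodilator peptide) lay at 8.70, 8.97 and 8.83 with vector and PBS, at 8.76, 8.72 and 8.91 with PGC-1a4 and PBS, at 11.66, 11.63 and 11.68 with vector and TNF, and at 10.16, 10.24 and 10.37 with PGC-1a4 and TNF. Both TNF groups lay above PBS, the vector group higher (interaction -1.36 ± 0.15, limma adjusted p = 2.82e-05), and its second probe set passed as well (-0.84). Angpt2, an angiopoietin (-1.41 ± 0.22), Elmod3 (-1.88 ± 0.17), Rabepk (-1.63 ± 0.16) and Pcdh17, a protocadherin (-1.61 ± 0.17), had the same form. For Mrpl39, of the mitochondrial ribosome, the interaction of -1.51 ± 0.11 was not seen in its other probe set (0.27). The same held for the elongation factor subunit Eef1d (-1.46 ± 0.17 against 0.13) and for St8sia4, a polysialyltransferase (-1.51 ± 0.17 against 0.13). A further, dimmer probe set of the gene missed the threshold for Acta2, Bak1, Ccn1, Col3a1, Cpt2, Crebrf, Cxcl12, Dnajb1, Gata6, Gpam, Hspa5, Hspa8, Il10rb, Pim3, Psmb8, Rrm1, Srxn1, St13, Tkt and Yy1, and it had the sign of the value given here for each.

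Psg28 had the lowest interaction, -2.59 ± 0.17 (limma adjusted p = 4.93e-07), and a form of its own. This member of the pregnancy-specific glycoprotein family read 7.82, 7.65 and 7.90 on the vector PBS arrays, 9.95, 10.11 and 10.24 on the PGC-1a4 PBS arrays, 6.98, 7.31 and 7.24 on the vector TNF arrays and 6.95, 6.92 and 6.81 on the PGC-1a4 TNF arrays. Its PGC-1a4 PBS arrays stood above all others, and its difference under TNF did not pass (-0.28 ± 0.12), so the interaction rested on a rise with PGC-1a4 in PBS (2.31 ± 0.12, limma adjusted p = 1.2e-08). The family has near-identical members, so the probe set may read more than 1 of them.

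Some markers of other liver cells had a lower interaction. Lower past the threshold were Lyve1 (-0.94 ± 0.19) and Cdh5 (-0.68 ± 0.17) of 5 endothelial markers, Col3a1 (-0.85 ± 0.15), Acta2 and Col1a1 (-0.64 ± 0.21) of 7 stellate and fibroblast markers, Csf1r (-0.89 ± 0.19) of 2 macrophage markers, Sox9 (-0.56 ± 0.17) of 4 cholangiocyte markers and Cd79a (-0.75 ± 0.19) of 2 lymphocyte markers, and none was higher. The call of Col1a1 was lost in the fit of the 12 arrays, with array weights, with the replicate block and without any 1 array but vector PBS replicate 3, vector TNF replicate 3 or PGC-1a4 TNF replicate 3. That of Sox9 was lost without any 1 of 6 arrays (vector PBS replicates 1 and 3, PGC-1a4 PBS replicate 1, vector TNF replicate 3, PGC-1a4 TNF replicates 1 and 3). In the mean of their probe sets Csf1r (-0.24) and Cdh5 (-0.25) did not pass. The log2 of the summed endothelial marker levels was 9.78 to 9.88 (vector PBS), 9.75 to 9.85 (PGC-1a4 PBS), 10.96 to 11.15 (vector TNF) and 10.50 to 10.54 (PGC-1a4 TNF). For stellate and fibroblast markers the sums were 11.32 to 11.40, 11.30 to 11.47, 10.84 to 11.11 and 10.41 to 10.42 in the same order, and for macrophage markers 8.66 to 8.99, 8.84 to 8.99, 9.12 to 9.55 and 8.37 to 8.73. Such sums mostly follow the brightest genes, here Acta2 and Csf1r, and do not stand for each marker. With vector, TNF took the mean of Lyve1 from 7.12 to 10.17, but Pecam1 from 6.96 to 6.54 and Clec4g from 7.95 to 7.35. Among these lists Krt19 (0.19), Clec4g (0.15), Epcam (0.11) and Ptprc (0.11) had interactions above 0 that did not pass. In these bulk samples fewer cells of a type and less RNA per cell cannot be told apart, and the part of other cells in the chemokine, interferon and immediate early results was not tested.

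The response with PGC-1a4 was also tested against that with PGC-1a1. It differed for 3068 genes (19.8%), and the PGC-1a1 response differed from the vector response for 3943 (25.5%). Both interactions subtract the same vector arrays, so their values are set side by side and the direct test is given. Cxcl10 had an interaction of -0.00 ± 0.24 with PGC-1a1 and differed between the isoforms by 2.23 ± 0.24 (limma adjusted p = 5.52e-06). Its PGC-1a1 arrays read 8.02, 8.49 and 8.53 in PBS and 11.37, 11.69 and 11.61 in TNF. Tlr2 (1.54 ± 0.20), Nfkbia (1.44 ± 0.15), Iigp1 (1.30 ± 0.31), Saa4 (1.29 ± 0.21) and Avpr1a (1.25 ± 0.15) were also higher with PGC-1a4 than with PGC-1a1. Lower were Psg28 (-2.68 ± 0.17), Mrpl39 (-1.75 ± 0.11) and the kinase Pim3 (-1.04 ± 0.10). Such a direct difference can be one of degree and does not show that a gene had no interaction with PGC-1a1.

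Some genes had the larger interaction with PGC-1a1. Hnf4a had an interaction of 2.57 ± 0.15 with PGC-1a1, more than with PGC-1a4 (direct difference -1.16 ± 0.15, limma adjusted p = 2.64e-05). G6pc (3.35 ± 0.25 with PGC-1a1, direct difference -2.21 ± 0.25) and Kynu, of tryptophan catabolism (3.57 ± 0.25 against 1.02 ± 0.25 with PGC-1a4, direct difference -2.55 ± 0.25), went further with PGC-1a1 as well. Hspa1b was lower with both, by more with PGC-1a1 (-3.70 ± 0.18, direct difference 1.28 ± 0.18). For Ccl2 (0.39 ± 0.39), Tnfaip3 (0.33 ± 0.20), Birc2 (-0.01 ± 0.19) and Maob (0.32 ± 0.25) the direct difference did not pass, which does not show that the isoforms act alike.

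**Figure D5:**
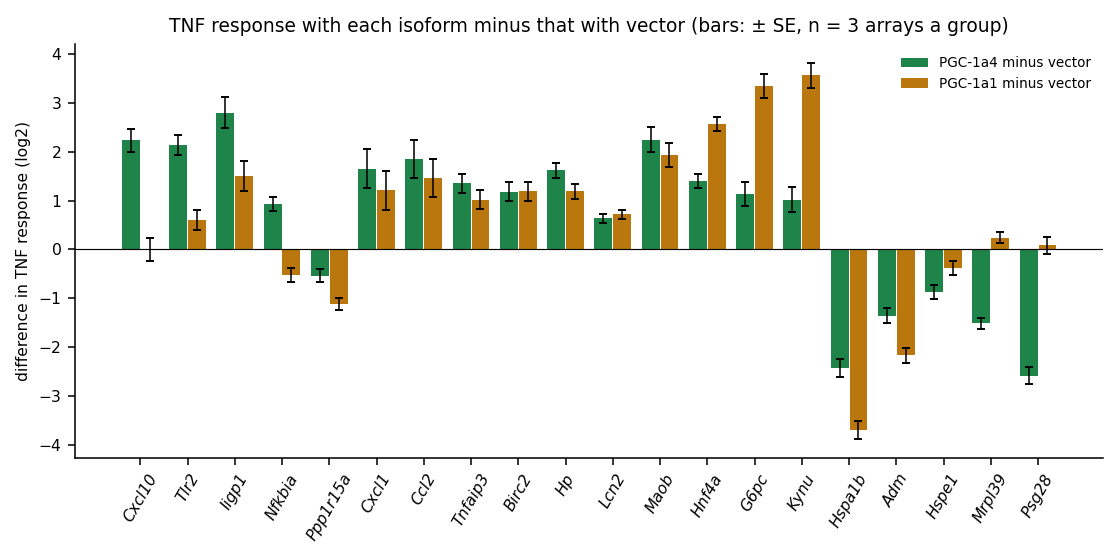
Difference in TNF response from vector (y axis, log2, bars with SE) for 20 genes with PGC-1a4 (green) and PGC-1a1 (brown), from 3 arrays in each group. Cxcl10 and Psg28 lie near 0 with PGC-1a1, whereas Hnf4a, G6pc, Kynu and Hspa1b lie further from 0 with PGC-1a1 than with PGC-1a4.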

How the data were processed

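RNA of primary hepatocytes was measured on mouse Affymetrix arrays, 18 in 6 groups of 3. The deposited values are log2 levels that the authors made by RMA with the R package affy, per the submitters' processing notes, with versions and the set of arrays normalized jointly not given in the sources used here. The values run from 3.37 to 15.99. The table used here has 33246 rows, of which 1 was incomplete and left out. By the platform annotation, with symbols updated by gene identifier for 25803 probe sets, 25951 name 1 gene, 686 several and 6608 none. Each of the 15491 genes was read from its brightest probe set by the mean of 18 arrays.

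Groups came from the labels. limma 3.58.1 in R 4.3.3 fitted 6 group means to all 18 arrays (lmFit and eBayes, two-sided, 12 residual and 5.08 prior degrees of freedom). Benjamini-Hochberg adjustment ran over all genes, at 0.05 with no minimum fold. The number of arrays limits the precision. In simulated data of 15491 genes, 76, 66 and 58 genes were changed by 0.5, 1 and 2 on the log2 scale. The interaction test recovered 22.4%, 84.8% and 100% of them, with 6 false among 137 calls. Far fewer genes were changed there than the 2480 called here, and the adjusted p depends on that share, so recovery may differ in these data. Same-numbered arrays did not deviate together (r = -0.14 to 0.06, with 3 of 12 arrays closest to their own number), so replicate numbers were not used as pairs.

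Genes were named by rule: Ppargc1a and Tnf, the 20 highest and 20 lowest interactions past the threshold, list members past it (the 3 of smallest p in lists with fewer), and the 5 of smallest p where 1 group's arrays stand apart. The lists, the members and the tests were chosen with earlier results of these data known. Other fits tried were the 12 arrays alone, a trend with robust moderation, a replicate block, array weights, 3 further scalings, dim genes left out, all or averaged probe sets, stricter thresholds and each array left out. Promoters came from RefSeq (GRCm38.p6). Python 3.11.15, pandas 2.3.3 and matplotlib 3.10.9 did the rest.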

Additional observations from a re-analysis of the deposited data

Results flagged for a closer look

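The TNF response with PGC-1a4 differed from that with vector for 2480 genes by the interaction term. TNF responses past the threshold went in opposite directions with vector and with PGC-1a4 for 191 genes with a higher and 37 with a lower interaction, and the 6 named ones with the largest interaction are given. Saa4 (2.38), Ubd (2.25), Avpr1a (1.81) and Ifi47 (1.53) fell with vector and rose with PGC-1a4. Mrpl39 (-1.51) and St8sia4 (-1.51) rose with vector and fell with PGC-1a4, and for both a further probe set of the gene did not show the difference. With 3 arrays in each group no array was tested for its distance from the rest of its group, and the counts without each array are given with the other settings.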

How the results depend on the processing

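The count of genes in the interaction was 1463 with a minimum fold of 1.5 and 1215 at an adjusted p of 0.01, 1964 to 2488 without any 1 array, and within 1.5 times of 2480 under the other settings run. Adding the replicate number as a block gave 2436 genes, and since the numbers do not pair the arrays this is no test of a weaker effect. With the minimum fold TNF changed 7142 genes with vector and 6932 with PGC-1a4, and without any 1 array 10376 to 11091 and 10157 to 10992. The count under PBS was the least stable: 15 in the fit of the 12 arrays, 157 with trend and robust moderation, 893 with array weights, 128 after quantile normalization, 96 after cyclic loess, 65 without dim genes, 16 with the minimum fold, 15 at 0.01, and 9 to 59 without any 1 array. Under TNF the count was 1713 with the minimum fold, 3440 at 0.01 and 4348 to 5250 without any 1 array. For the 126 genes named here past the threshold in the interaction, calls were compared over the settings without the 2 stricter thresholds. Of these genes, 117 kept the call under every such setting, 9 lost it under at least 1 and 0 reversed. The minimum fold and the adjusted p of 0.01 are not part of this count. Some of the 126 miss them, such as Bcl3 (1.46-fold) and Cd79a (limma adjusted p = 0.0126). Of values not past the threshold, Tnf (-0.13) turned to 0.14 with array weights and ran from -0.34 to 0.12 without any 1 array, and Ppargc1a turned to 0.036 in the mean of its probe sets. The cause was not tested. Signal near background limits dim genes, which these values carry no detection call for.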
